A study of Mus musculus with 28 samples.

Results

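*Alx4* and 8 further transcription factor genes of mesenchyme (*Prrx1*, *Prrx2*, *Msx1*, *Msx2*, *Tcf21*, *Osr1*, *Osr2* and *Twist2*) were followed through stromal and luminal cells of the mouse mammary gland. They were chosen by name, with earlier results of these data known. Each was matched to its row of read counts through its Ensembl ID, which found 9 of 9 genes among 50600. Stromal and luminal cells had been sorted by FACS from individual adult female mice on a C57BL/6 background, which carried the constitutive *PdgfrαCre* transgene and the *R26mTmG* reporter. In these mice GFP marks every cell that has expressed Cre and all descendants of such a cell, whatever they express at the time of the sort, and tdTomato marks the remaining cells. All 28 libraries came from mice of this genotype: 4 untreated mice and 3 mice given slow-release pellets of estrogen plus progesterone (E+P), with intact ovaries as far as the methods state. Each mouse gave 4 populations, GFP+ stroma, tdTomato+ stroma, GFP+ luminal cells and tdTomato+ luminal cells, so there were 8 groups of 4 (untreated) or 3 (E+P) libraries. Samples of the same treatment that carry the same number came from the same mouse.

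The homeodomain factors of the aristaless and paired-related families (Alx4, Prrx1, Prrx2) pattern limb, skull and skin mesenchyme in the embryo. Msx1 and Msx2 are homeodomain repressors that act downstream of BMP signals on both sides of epithelial-mesenchymal contacts, the mammary bud among them. Osr1 and Osr2 are zinc-finger factors of embryonic connective tissue, and Twist2 and Tcf21 are basic helix-loop-helix (bHLH) factors that keep mesenchymal progenitors undifferentiated in several organs. In the mammary mesenchyme, parathyroid hormone-related protein (PTHrP) from the epithelium acts with BMP signals to set the identity of the fibroblasts around the bud.

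Because the members are related to each other and to other genes, the sequence shared by relatives bears on whether a read can be given to 1 gene. Paired-end reads of 75 bases were sequenced, and the longest exact stretch that the coding sequences of each pair have in common in GENCODE M21 (GRCm38) was shorter than 1 read in each of the 5 pairs shown, from 19 to 23 bases. These stretches, 1 pair for each family, all lie within coding exons and are printed 5′ to 3′ on the strand of the first gene. They lie at chr2:93677517-93677535 on the plus strand (*Alx4* with *Alx1*, 19 bases), chr1:163248325-163248343 on the minus strand (*Prrx1* with *Prrx2*, 19 bases), chr5:37821589-37821610 on the minus strand (*Msx1* with *Msx2*, 22 bases), chr12:9579735-9579757 on the plus strand (*Osr1* with *Osr2*, 23 bases) and chr1:91801891-91801913 on the plus strand (*Twist2* with *Twist1*, 23 bases).
Alx4 and Alx1: atgaaggccaaggagcaca
Prrx1 and Prrx2: tcaacatggccaacagcat
Msx1 and Msx2: tggagcgcaagttccgccagaa
Osr1 and Osr2: tacacctgtgacatctgccacaa
Twist2 and Twist1: ctgcgcaagatcatccccacgct

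RefSeq promoter windows (GRCm38.p6, at most 250 bases upstream of the start are shown here) were matched for 6 of 9 members. *Alx4*, *Osr1* and *Osr2* had no entry in the table used here. The windows of *Prrx1*, *Msx1* and *Twist2* are printed because the genes behave differently in stroma in the data that follow. *Prrx1* was abundant in both stromal subsets, *Msx1* was higher in GFP+ stroma, and *Twist2* overlapped between the subsets. Capitals mark an E-box (CANNTG, the motif bound by bHLH factors) or the homeodomain core TAATTA, searched on both strands. An E-box stood in 66.2% and a TAATTA in 4.84% of all 32851 windows. The windows lie at chr1:163313711-163313900 on the minus strand (*Prrx1*, 190 bases), chr5:37824586-37824835 on the minus strand (*Msx1*, 250 bases) and chr1:91801211-91801460 on the plus strand (*Twist2*, 250 bases).
Prrx1: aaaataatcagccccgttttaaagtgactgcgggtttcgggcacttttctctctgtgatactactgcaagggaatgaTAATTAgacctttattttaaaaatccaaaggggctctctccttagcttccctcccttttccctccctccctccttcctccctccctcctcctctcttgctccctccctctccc
Msx1: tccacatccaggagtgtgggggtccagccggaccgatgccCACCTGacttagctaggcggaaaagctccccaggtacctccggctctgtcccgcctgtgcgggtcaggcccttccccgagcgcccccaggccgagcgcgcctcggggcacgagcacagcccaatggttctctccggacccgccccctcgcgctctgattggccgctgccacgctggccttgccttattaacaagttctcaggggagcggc
Twist2: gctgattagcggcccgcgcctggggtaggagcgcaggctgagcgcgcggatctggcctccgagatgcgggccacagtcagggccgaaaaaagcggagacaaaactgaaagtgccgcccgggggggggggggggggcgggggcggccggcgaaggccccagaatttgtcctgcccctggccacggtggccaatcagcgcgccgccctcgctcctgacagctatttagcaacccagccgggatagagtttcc

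The windows differed in base composition. Over 250 bases before the RefSeq start, *Prrx1* had 4 CpG and 47.6% G or C, below the medians over all windows of 6 CpG and 52.4%. *Msx1* had 20 CpG and 68.0% G or C, and *Twist2* had 23 CpG and 68.8%. The *Prrx1* window held a TAATTA and the *Msx1* window an E-box, both of which are descriptions of the letters and not of bound sites.

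Between 8623383 and 24583803 reads per library had been counted on genes. CPM are each gene's counts as a share of the library, scaled by TMM over all libraries. On this scale 3 counts corresponded to 0.122 to 0.308 CPM, a limit that covers counting error only. The labels of the stromal subsets were compared with summed marker genes. The fibroblast list includes *Pdgfra*, whose Cre transgene set the GFP label. Fibroblast markers were high in GFP+ stroma, with means of 42189 CPM untreated and 54384 CPM with E+P, and lower in tdTomato+ stroma, with 3908 and 2039 CPM. The tdTomato+ stroma carried pericyte and smooth muscle markers at 7455 CPM untreated and 6920 CPM with E+P (106 and 94.9 CPM in GFP+ stroma). It also carried skeletal muscle markers at 6996 and 12493 CPM (10.5 and 12.1 CPM in GFP+ stroma) and satellite cell markers at 232 and 239 CPM. The tdTomato+ stroma thus carried markers of several cell kinds, whose part in the differences between the stromal subsets was not tested. In bulk libraries, fewer cells that express a gene and less RNA of it per cell cannot be told apart.

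**Figure D1:**
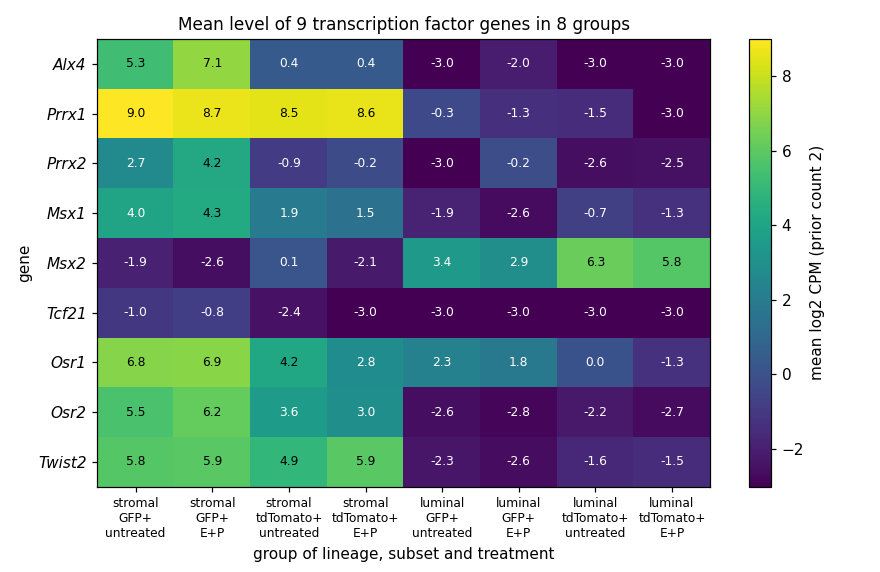
Mean log2 CPM (prior count 2) of the 9 genes (vertical) in the 8 groups of lineage, subset and treatment (horizontal), with each mean printed in its cell. *Prrx1* and *Twist2* were high in all 4 stromal groups, *Alx4*, *Osr1* and *Osr2* mainly in GFP+ stroma, and *Msx2* in luminal cells.

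Stromal cells carried most of these genes and luminal cells few of them. Over all libraries 8 members passed the low-count filter (*Tcf21* did not), and edgeR's quasi-likelihood test called 7 higher and 1, *Msx2*, lower in stroma at an adjusted p under 0.01, where 33.0% of all genes tested were called higher and 30.5% lower. Nothing is read from this count, because *Alx4*, *Prrx2*, *Msx1*, *Osr2* and *Twist2* did not pass the filter in luminal cells and entered the test through stroma, where they are high. The log2 fold changes were 11.04 for *Prrx1*, 9.45 for *Alx4*, 8.82 for *Osr2*, 8.40 for *Twist2*, 5.38 for *Prrx2*, 5.34 for *Msx1*, 4.59 for *Osr1* and -6.66 for *Msx2*. Each of these signs was found in 7 of 7 mice. *Alx4* had no counts in untreated GFP+ luminal cells or in either tdTomato+ luminal group. *Prrx1* had none in E+P tdTomato+ and *Prrx2* none in untreated GFP+ luminal cells. A group without counts gives no firm fold change, so the order of these sizes is not read. For *Alx4* the value ran from 7.88 to 9.80 over the settings tried. The lowest of the 14 stromal libraries lay above the highest of the 14 luminal libraries for 3 members, *Prrx1*, *Osr2* and *Twist2*. This holds for 7.89% of all genes, but nothing is read from it either, because *Osr2* and *Twist2* entered through stroma. For the other 4 higher members, tdTomato+ stroma overlapped with luminal cells.

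*Alx4* (ENSMUSG00000040310.12, chr2:93642384-93681339, plus strand) had the lowest share of its level in tdTomato+ stroma among the 7 stromal members compared. Its 4 untreated GFP+ stromal libraries held 36.7, 36.0, 54.6 and 36.5 CPM (41.0 ± 9.11, SD) and its 3 E+P libraries 121, 169 and 116 CPM (135 ± 29.3). In tdTomato+ stroma it held 0.359, 1.40, 2.37 and 1.52 CPM untreated and 0.251, 1.88 and 2.74 CPM with E+P. The lowest GFP+ library was thus far above the highest tdTomato+ library, and the tdTomato+ level in the same mouse was 2.44 ± 1.71% of the GFP+ level (7 mice, 0.207% to 4.34%). GFP+ stroma exceeded tdTomato+ stroma by 5.55 on the log2 scale (SE 0.41, adjusted p = 1.2e-07 by edgeR), 4.76 in untreated and 6.35 in E+P mice. In luminal cells no read of *Alx4* was counted in 12 of the 14 libraries, and the other two, both GFP+ with E+P, held 4 and 3 counts. Against 3 counts per library in the group compared, untreated GFP+ stroma was at least 133-fold higher than untreated GFP+ luminal cells and at least 185-fold higher than untreated tdTomato+ luminal cells. *Pdgfra*, whose Cre transgene set the GFP label, had a tdTomato+ level of 5.41 ± 4.52% of the GFP+ level.

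*Prrx1* (ENSMUSG00000026586.16, chr1:163245119-163313710, minus strand), a paired-related homeodomain factor of limb bud and skin mesenchyme, behaved otherwise. Untreated GFP+ stroma held 496, 561, 472 and 521 CPM (512 ± 38.1) and untreated tdTomato+ stroma 333, 345, 368 and 417 CPM (366 ± 37.0). The untreated subsets did not overlap, and the log2 fold change was 0.45 (SE 0.12, adjusted p = 0.00558 by edgeR). With E+P the GFP+ libraries held 393, 373 and 459 CPM (408 ± 45.0) and the tdTomato+ libraries 453, 365 and 357 CPM (392 ± 53.7), which overlapped, with a log2 fold change of 0.01. Over both treatments the difference was 0.23 and did not pass (SE 0.09, adjusted p = 0.0388). The untreated call was close to the threshold. It was lost without untreated mouse 1 (adjusted p = 0.0188), 2 (0.0381) or 3 (0.0134), without E+P mouse 3 (0.0103), and with DESeq2 size factors, library size only, no low-count filter or the untreated groups alone, in each case with the same sign.

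*Prrx2* (ENSMUSG00000039476.13, chr2:30834972-30881251, plus strand), the close relative of *Prrx1*, was also mainly a gene of GFP+ stroma. The untreated GFP+ stromal libraries held 6.48, 5.17, 9.58 and 4.89 CPM (6.53 ± 2.15) and the E+P libraries 16.1, 23.2 and 17.6 CPM (19.0 ± 3.74). All 7 tdTomato+ stromal libraries lay below them, between 0 and 1.40 CPM, and the log2 fold change was 3.96 (SE 0.39, adjusted p = 1.8e-07 by edgeR). The 4 untreated GFP+ luminal libraries had no read of *Prrx2*, and the 3 E+P ones held 8, 20 and 16 counts (0.558, 1.10 and 0.696 CPM). For every 100 counts of *Prrx1* there were 1.30 ± 0.519 of *Prrx2* in untreated GFP+ stroma and 4.72 ± 1.31 with E+P. Per kilobase of exon, untreated GFP+ stroma held 46.3 CPM of *Prrx1*, 5.80 of *Alx4* and 3.33 of *Prrx2*.

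Of the Msx pair, *Msx1* (ENSMUSG00000048450.10, chr5:37820485-37824583, minus strand) was the stromal gene. Untreated GFP+ stroma held 11.6, 21.1, 13.9 and 17.9 CPM (16.1 ± 4.18) and untreated tdTomato+ stroma 9.14, 1.93, 5.30 and 1.61 CPM (4.50 ± 3.52). With E+P the levels were 20.1, 27.5 and 14.6 CPM in GFP+ and 3.91, 4.09 and 1.17 CPM in tdTomato+ stroma. No tdTomato+ library reached a GFP+ library, but the first untreated mouse, at 9.14 CPM, came close. The log2 fold change over both treatments was 2.25 (SE 0.38, adjusted p = 1.6e-04 by edgeR).

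The calls within a treatment were less stable for *Msx1* than for the members with larger differences. The untreated difference of 1.79 had an adjusted p of 0.00973, which became 0.0127 with the mouse as a replicate block, 0.011 with DESeq2 size factors and 0.0156 with the untreated groups alone, and which exceeded 0.01 without untreated mouse 2 (0.0617), 3 (0.0282) or 4 (0.0450) or without E+P mouse 1 (0.0198) or 2 (0.0159). The E+P difference of 2.71 (adjusted p = 0.00178) exceeded it without E+P mouse 1 (0.0139) or 2 (0.0174).

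The zinc-finger genes *Osr1* (ENSMUSG00000048387.8, chr12:9570116-9581500, plus strand) and *Osr2* (ENSMUSG00000022330.4, chr15:35296098-35303305, plus strand) were both higher in GFP+ stroma. *Osr1* held 97.7, 111, 124 and 121 CPM in untreated GFP+ stroma (113 ± 11.9) and 26.0, 7.10, 28.5 and 20.0 CPM in untreated tdTomato+ stroma (20.4 ± 9.56). With E+P the GFP+ level was 117 ± 1.78 CPM and the tdTomato+ level 6.82, 5.24 and 9.10 CPM. The *Osr1* subsets were separate (log2 fold change 3.21, SE 0.25, adjusted p = 1.1e-07 by edgeR). *Osr2* held 45.8, 68.5, 40.2 and 37.7 CPM untreated (48.1 ± 14.1) and 63.7, 73.7 and 80.2 CPM with E+P in GFP+ stroma. In tdTomato+ stroma it held 20.5, 10.4, 14.2 and 6.92 CPM untreated and 6.26, 8.23 and 8.63 CPM with E+P. These subsets did not overlap either, with a log2 fold change of 2.51 (SE 0.21, adjusted p = 5.6e-08). In untreated GFP+ stroma *Osr1* was the most abundant member per kilobase of exon by its mean, with 54.9 CPM per kb, against 46.3 for *Prrx1*, with which its libraries overlapped, and 13.3 for *Osr2*.

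The bHLH genes did not share a pattern. *Twist2* (ENSMUSG00000007805.4, chr1:91801461-91848028, plus strand), known as Dermo1 from dermal mesenchyme, held 45.3, 60.9, 39.0 and 92.8 CPM in untreated GFP+ stroma and 15.0, 30.1, 48.5 and 39.3 CPM in untreated tdTomato+ stroma. With E+P it held 56.1, 80.9 and 50.8 CPM in GFP+ and 75.9, 52.3 and 53.9 CPM in tdTomato+ stroma. The subsets overlapped in both treatments, and the log2 fold change of 0.40 did not pass (SE 0.26, adjusted p = 0.212 by edgeR). By treatment it was 0.80 in untreated mice (SE 0.34, adjusted p = 0.0775 by edgeR) and -0.002 in E+P mice. An antisense gene, *Gm29100*, overlaps its exons and was given 188 counts in all libraries together. The strand setting of the counting is not given, and the effect of this overlap on the *Twist2* counts was not tested. *Tcf21* (ENSMUSG00000045680.8, chr10:22817281-22820174, minus strand), a factor of kidney, lung and heart mesenchyme, was counted at most 12 times in a library. It had 5, 9, 9 and 1 counts in untreated and 4, 12 and 9 counts in E+P GFP+ stroma, at most 2 counts in a tdTomato+ stromal library and no counts in the 14 luminal libraries. It was too low for any fit.

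**Figure D2:**
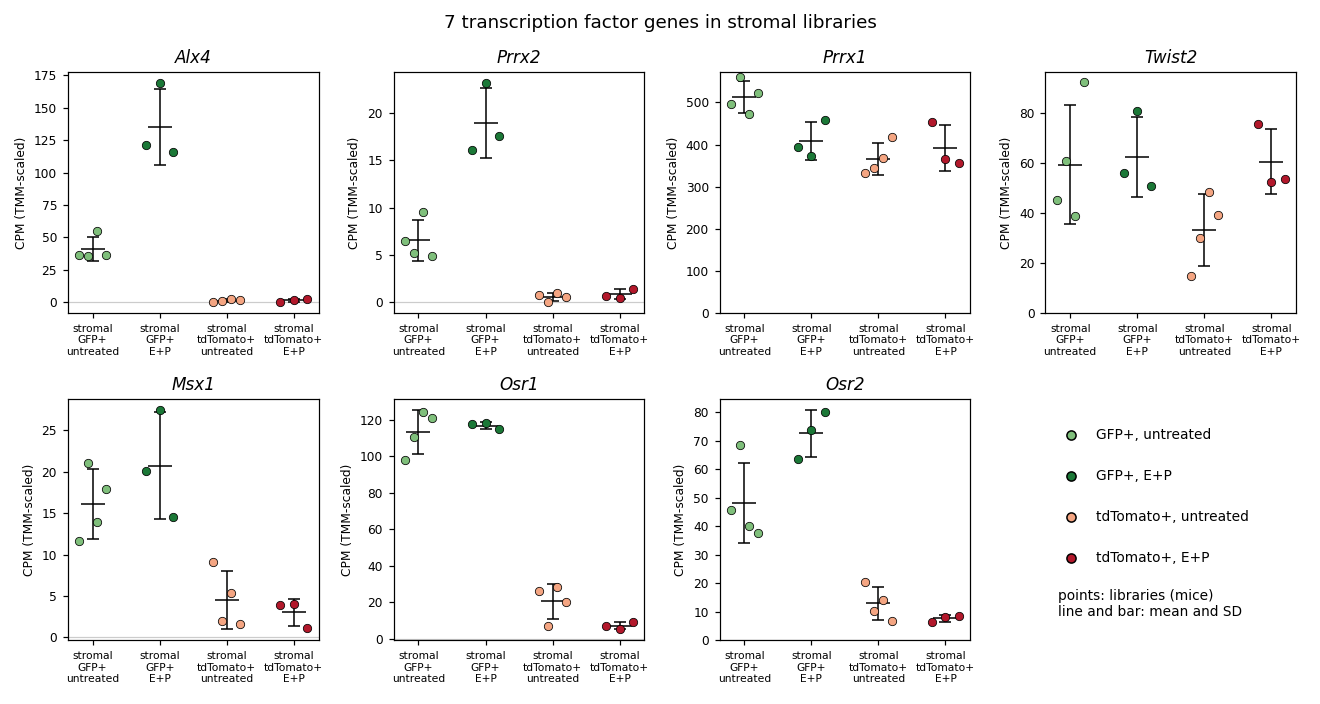
CPM (vertical) of 7 members in GFP+ and tdTomato+ stroma, untreated and E+P (horizontal), with 1 point per library and bars for the group mean and SD. *Alx4*, *Prrx2*, *Msx1*, *Osr1* and *Osr2* have no tdTomato+ library that reaches a GFP+ library. *Twist2* overlaps between the subsets in each treatment, and *Prrx1* with E+P but not in untreated mice.

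Thus 5 members (*Alx4*, *Prrx2*, *Msx1*, *Osr1* and *Osr2*) were called higher in GFP+ stroma and 0 were called lower, of 8 that passed the filter in stroma, where 20.6% of all genes tested were called higher and 21.3% lower. The same 5 were those whose 7 GFP+ libraries all lay above the 7 tdTomato+ libraries, a pattern of 14.4% of all genes. DESeq2 and limma-voom also called 5 members, beside 8306 and 7648 of 17783 genes called in either direction. In untreated mice alone 6 of 8 were called higher (13.5% of all genes), the same 5 and *Prrx1*, and in E+P mice 5 of 8 (14.2%). The median log2 fold change over the 8 was 2.38, beside -0.01 over all genes. The members were chosen with earlier results of these data known. Nothing about them as a set is therefore read from these shares or this median.

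The share of the GFP+ level that was found in tdTomato+ stroma of the same mouse ran from low in *Alx4* to high in *Prrx1*. Over both treatments, after *Alx4* at 2.44 ± 1.71% followed *Prrx2* at 6.62 ± 4.65% (0% to 11.6%), *Osr1* at 13.0 ± 9.04% (4.45% to 26.6%), *Osr2* at 20.8 ± 13.8% (9.84% to 44.9%) and *Msx1* at 25.3 ± 25.7% (7.99% to 78.5%). *Twist2* at 79.3 ± 41.8% (33.0% to 135%) and *Prrx1* at 82.5 ± 18.4% (61.5% to 115%) closed the order. The means differed between treatments: untreated and with E+P they were 3.34% and 1.23% for *Alx4*, 18.1% and 6.05% for *Osr1*, 28.5% and 10.6% for *Osr2*, and 33.7% and 14.1% for *Msx1*. *Twist2* went the other way, with 62.2% and 102%, and stood above *Prrx1* (71.7% and 96.9%) with E+P but below it in untreated mice. None of the interactions of subset and E+P of these members passed. Neighbours in this order overlapped in their ranges over mice, so only steps across several places were larger than the spread between mice. Over the 7 mice the range of *Alx4* lay below those of *Osr1*, *Osr2* and *Msx1*, and the ranges of *Osr1* and *Osr2* lay below that of *Prrx1*.

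**Figure D3:**
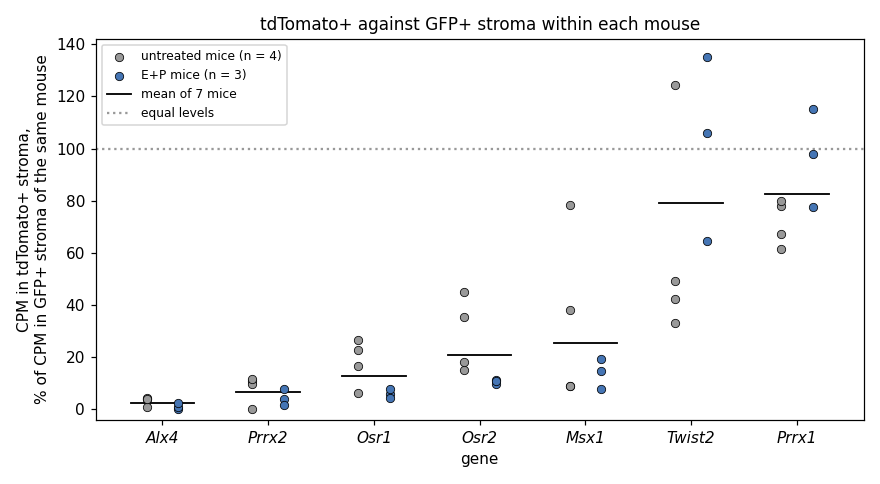
tdTomato+ stromal CPM as a percent of the GFP+ stromal CPM of the same mouse (vertical) for 7 members (horizontal), with 1 point per mouse, a line for the mean, untreated mice in grey and E+P mice in blue. The dotted line marks 100%, which *Twist2* and *Prrx1* reach in some mice and the other 5 members in none.

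With E+P, *Alx4* and *Prrx2* stood at higher levels in GFP+ stroma but did not pass the threshold in the fit over all stromal groups. Their E+P libraries lay above all untreated ones, which held for 2 of 8 members, beside 8.23% of all genes. For *Alx4* the log2 fold change was 1.70 (SE 0.44, 95% interval 0.75 to 2.65, adjusted p = 0.135 by edgeR) and for *Prrx2* 1.51 (SE 0.46, 0.54 to 2.47, adjusted p = 0.205). By this test 0 of 8 members were called (0.231% of all genes) and 3 had an unadjusted p under 0.05, beside 1429 of 17783 genes. DESeq2 called 0 members, beside 192 of 17783 genes. Beside 97 genes, limma-voom called 1 member, *Alx4* (adjusted p = 2.1e-04). In a fit of the GFP+ stroma alone the adjusted p was 2.6e-04 for *Alx4* and 0.00325 for *Prrx2*. The choice of libraries in the fit thus put both genes on either side of the threshold. Counted against *Pdgfra*, there were 2.08 ± 0.417 reads of *Alx4* for every 100 in untreated and 5.76 ± 1.15 in E+P GFP+ stroma. Summed fibroblast markers ran from 30667 to 60081 CPM untreated and from 49861 to 58733 CPM with E+P, and their part in these values was not tested.

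The other members of GFP+ stroma showed smaller differences with E+P. *Prrx1* was lower in all E+P libraries (1 of 8 members, beside 4.97% of all genes), with a log2 fold change of -0.35 (SE 0.13, 95% interval -0.62 to -0.08, adjusted p = 0.344 by edgeR). *Osr2* had a log2 fold change of 0.57 (adjusted p = 0.647) with overlapping libraries. The libraries of *Msx1* (0.34), *Twist2* (0.05) and *Osr1* (0.02) also overlapped.

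In tdTomato+ stroma *Osr1* had the largest difference with E+P among the members that were well counted there, a log2 fold change of -1.56 (SE 0.35, 95% interval -2.32 to -0.80, adjusted p = 0.0590 by edgeR). Its libraries overlapped because the second untreated mouse, at 7.10 CPM, lay within the range of the E+P mice. Without that mouse the log2 fold change was -1.86 (adjusted p = 5.4e-04), and DESeq2 called it with all mice (adjusted p = 2.9e-04). The summed fibroblast markers of the 4 untreated libraries ran in the same order, 4526, 2273, 6133 and 2700 CPM, and their part in the value was not tested. *Twist2* was higher in all E+P libraries than in the untreated ones (1 of 8 members, beside 5.67% of all genes), with a log2 fold change of 0.85 (SE 0.36, adjusted p = 0.273). By edgeR 0 of 8 members were called (0.124% of all genes) and 4 had an unadjusted p under 0.05, beside 2780 of 17783 genes. DESeq2 called 1 member, beside 384 of 17783 genes, and limma-voom 0, beside 8 genes.

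Whether E+P acted differently in the stromal subsets was tested as an interaction. The log2 difference was 1.58 for *Alx4* (adjusted p = 0.492 by edgeR), 1.58 for *Osr1* (0.25) and 1.35 for *Osr2* (0.242), and 0 of 8 members were called (0.045% of all genes). At an unadjusted p under 0.05 there were 3 by edgeR, 3 by DESeq2 and 4 by limma-voom, beside 1858, 2063 and 1754 of 17783 genes. Neither of the latter tools called a member, beside 111 and 3 genes called. A difference in the response of the subsets was therefore not detected with 4 and 3 mice.

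**Figure D4:**
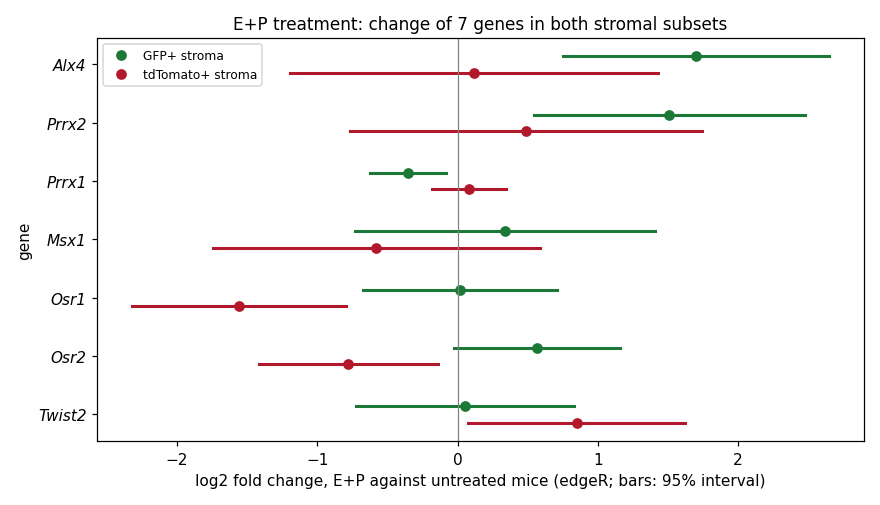
Log2 fold change of E+P against untreated stroma (horizontal) for 7 members (vertical), with 95% intervals, in GFP+ (green) and tdTomato+ (red) stroma. The intervals of *Alx4*, *Prrx2* and *Prrx1* in GFP+ stroma and of *Osr1*, *Osr2* and *Twist2* in tdTomato+ stroma do not include 0, and none of these 6 differences passed an adjusted p of 0.01 by edgeR.

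In luminal cells *Msx2* (ENSMUSG00000021469.9, chr13:53466884-53473074, minus strand), a homeodomain factor of the embryonic mammary bud and of skin appendages, had the highest level of the members per kilobase of exon, 24.4 CPM per kb in untreated tdTomato+ cells. The untreated tdTomato+ luminal libraries held 51.3, 110, 83.4 and 75.8 CPM (80.1 ± 24.1) and the E+P libraries 38.4, 73.4 and 64.5 CPM (58.8 ± 18.2). GFP+ luminal cells held 11.8, 8.20, 33.9 and 3.95 CPM untreated (14.5 ± 13.3) and 7.54, 6.22 and 9.09 CPM with E+P (7.61 ± 1.44). Every tdTomato+ library was above every GFP+ library, and the log2 fold change of GFP+ against tdTomato+ luminal cells was -2.71 (SE 0.41, adjusted p = 1.8e-04 by edgeR).

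The genes of hormone-sensing luminal cells (*Esr1*, *Pgr*, *Prlr* and *Foxa1*, a list chosen after the values were seen) were divided between the luminal subsets in the same way. Their summed levels were 3472 to 5041 CPM in untreated and 1722 to 2900 CPM in E+P tdTomato+ luminal cells. They were 1064, 408, 1696 and 258 CPM in the untreated GFP+ luminal libraries, which is the order of *Msx2* there. With E+P these GFP+ sums were 257, 182 and 152 CPM and did not follow *Msx2*, whose highest library had the lowest sum. The part of hormone-sensing cells in these *Msx2* values was not tested. In untreated tdTomato+ stroma *Msx2* had 0.807, 2.72, 4.49 and 0 CPM, beside luminal marker sums of 71.3, 253, 408 and 17.8 CPM. The log2 fold change of *Msx2* between the stromal subsets, -2.15, did not pass (SE 1.05, adjusted p = 0.0958 by edgeR), and the part of luminal cells in it was not tested.

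*Osr1* was the one other member called between luminal subsets, in the opposite direction. GFP+ luminal cells held 3.10, 11.8, 3.93 and 3.30 CPM untreated and 2.72, 3.36 and 4.48 CPM with E+P, and tdTomato+ luminal cells 0.704, 0.245, 1.47 and 1.92 CPM untreated and 0.164, 0.224 and 0.551 CPM with E+P. The lowest GFP+ library was above the highest tdTomato+ library, and the log2 fold change was 2.87 (SE 0.47, adjusted p = 1.9e-04 by edgeR). Of the 3 members that passed the filter in luminal cells, 2 were thus called, beside 34.7% of all genes tested. Subsets without overlap were found for 5.72% of all genes with GFP+ cells higher, as for *Osr1*, and for 6.47% with GFP+ cells lower, as for *Msx2*. *Prrx1* was counted in all 7 GFP+ luminal libraries. For every 100 of its reads, the pooled libraries held 680 of *Osr1* untreated and 1128 with E+P. The pooled values in GFP+ stroma were 22.3 and 28.4. Single GFP+ luminal libraries ran from 293 to 2875 untreated and from 433 to 6100 with E+P. These luminal ratios rested on 40 counts of *Prrx1* untreated and 18 with E+P. Summed fibroblast markers were 36.6 to 112 CPM in untreated and 23.1 to 25.5 CPM in E+P GFP+ luminal cells, and the part of stromal cells in these reads was not tested.

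The level of *Prrx1* in tdTomato+ luminal cells rested on 1 library. Untreated tdTomato+ luminal cells had 0, 0, 59 and 3 counts, and E+P ones 0 in all 3 libraries, while GFP+ luminal cells had 15, 4, 7 and 14 counts untreated and 9, 1 and 8 with E+P. The log2 fold change of GFP+ against tdTomato+ luminal cells was 2.49 (SE 1.68, adjusted p = 0.249 by edgeR). Without the mouse with 59 counts, the third untreated one, it was 4.76 (adjusted p = 0.00304). That library also had the highest *Twist2* of the luminal libraries (1.40 CPM), and its summed skeletal muscle markers were 44.9 CPM, compared with 0.897 to 1.41 CPM in the other untreated tdTomato+ luminal libraries.

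No member passed for E+P in luminal cells by edgeR's test. In GFP+ luminal cells, 0 of 3 members were called (5.96% of all genes) and 0 had an unadjusted p under 0.05, by edgeR, DESeq2 and limma-voom alike. Of all 16538 genes, 4940, 5161 and 4805 had such an unadjusted p by these tools. In tdTomato+ luminal cells 0 of 3 were called (14.1% of all genes) and 2 had an unadjusted p under 0.05, beside 6446 of 16538 genes. DESeq2 called 1 member there, beside 3558 of 16538 genes. This was *Prrx1*, which had no counts in any E+P library, so that no fold change is given. Its adjusted p by edgeR was 0.0716 with all mice and 0.31 without the mouse with 59 counts. The log2 fold changes were -0.97 in GFP+ and -0.44 in tdTomato+ luminal cells for *Msx2*, and -0.66 and -1.72 (adjusted p = 0.0905) for *Osr1*.

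**Figure D5:**
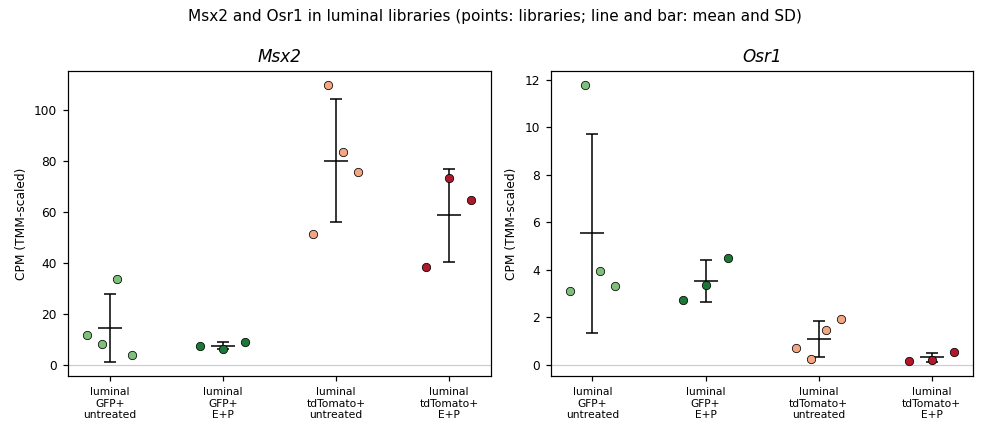
CPM (vertical) of *Msx2* and *Osr1* in the 4 luminal groups (horizontal), with 1 point per library and bars for the group mean and SD. The 7 tdTomato+ libraries are above the 7 GFP+ libraries for *Msx2* and below them for *Osr1*.

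Whether the subsets differed by another amount in stroma than in luminal cells was tested as an interaction of lineage and subset. By edgeR 1 of 8 members was called with a larger GFP+ to tdTomato+ difference in stroma, *Msx1* (4.47 on the log2 scale, SE 0.94, adjusted p = 3.9e-04), beside 16.3% of all genes called in that direction. Nothing is read from this call, because *Msx1* entered the fit through stroma, was too low to be tested in luminal cells alone, and had only 14 counts in the 7 GFP+ and 72 counts in the 7 tdTomato+ luminal libraries. The same limit holds for *Prrx2* (3.64, adjusted p = 0.0135), *Osr2* (3.51, 0.0166) and *Twist2* (2.78, 0.0320), which did not pass. For *Osr1* the interaction was 0.37 and for *Msx2* 0.55. *Prrx1* had -2.26, which became -4.38 (adjusted p = 4.2e-05) without the third untreated mouse. *Alx4* had no usable estimate in this fit because its luminal counts are nearly all 0. In these interactions the luminal levels were mostly a few counts, apart from *Msx2* and *Osr1*.

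Related and neighbouring genes, taken from lists of named families, were called in both directions between the stromal subsets, at shares that are to be read beside the 20.6% of all genes called higher and 21.3% called lower. Of 13 tested homeobox relatives 4 were called higher and 4 lower in GFP+ stroma (median log2 fold change 0.16), and of 4 tested bHLH relatives 1 was higher and 2 lower (median -1.69). *Twist1*, the close relative of *Twist2*, was higher in GFP+ stroma (81.6 ± 14.2 against 18.0 ± 2.71 CPM, log2 fold change 2.13), whereas *Twist2* did not pass. *En1*, an engrailed homeobox gene of ventral limb and dermis, was also higher (30.9 ± 8.32 against 4.07 ± 2.40 CPM, 2.90). *Alx1*, a relative of *Alx4* itself, was low, with a mean of at most 0.482 CPM in any group.

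Among 22 tested other mesenchymal factors, 6 were higher and 7 lower in GFP+ stroma (median 0.16). *Gli3*, the hedgehog-pathway repressor, was higher (133 ± 6.30 against 50.4 ± 8.73 CPM, log2 fold change 1.35), as was *Meis1*, a TALE homeobox cofactor (37.1 against 11.7 CPM, 1.67). The forkhead genes *Foxf1* (2.40 against 24.5 CPM, -3.40) and *Foxc1* (3.02 against 19.4 CPM, -2.75) were lower. The 14 genes of PTHrP, BMP and Wnt signalling in mammary mesenchyme gave 3 higher and 5 lower, with a median of -0.80. The BMP-responsive genes *Id3* (77.9 against 256 CPM, -1.79) and *Smad7* (73.1 against 181 CPM, -1.37) were lower, whereas *Id2*, of the same family as *Id3*, was higher (64.3 against 22.4 CPM, 1.49). Each of these named genes had an adjusted p under 0.01 and no overlap between the 7 GFP+ and the 7 tdTomato+ libraries.

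The genes whose means over the 8 groups ran most like those of *Alx4* were measured by the root mean square difference of centred log2 means among 11402 genes. They were *Spon2*, a matrix protein (difference 0.51), *Col13a1*, a transmembrane collagen (0.61), *Prg4*, the lubricin gene (0.68), *Fgf10*, a growth factor of mesenchyme (0.72), and *Fibin* (0.76). *Spon2* had 120 CPM in untreated and 351 CPM in E+P GFP+ stroma, and *Col13a1* had 28.2 and 68.6 CPM. *Fgf10* was like *Alx4* between the groups of cells, but its GFP+ means were 75.8 CPM untreated and 57.0 CPM with E+P. For the other members the single nearest genes were *Zeb2* for *Prrx1* (0.30), *Ripor3* for *Prrx2* (0.65), *Thbs3* for *Msx1* (0.26), *Slc35f3* for *Msx2* (0.42), *Gm10855* for *Osr1* (0.43), *Lsp1* for *Osr2* (0.22) and *Aldh1a1* for *Twist2* (0.33). Among the members themselves the closest pair was *Osr2* and *Twist2* (0.94), followed by *Msx1* and *Osr2* (1.35) and by *Alx4* and *Osr2* (1.37). None of the nearest genes above was itself a member. Nothing is read from this, because each was the closest of 11402 genes, a pool that included members.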

How the data were processed

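Gene counts that the authors deposited for 28 libraries were used as they stand. Per the labels and methods, total RNA was made into stranded libraries, sequenced in pairs of 75 bases and aligned and counted with STAR on GRCm38.p5 with a GENCODE annotation. The strand setting of the counting is not given in the sources used here, and RNA quality varied. Symbols, coordinates and exon lengths were taken from GENCODE M21, which held 50376 of 50600 gene IDs, 45737 with the same version.

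Counts were scaled by TMM, filtered by filterByExpr and tested, two-sided, by edgeR 4.0.16 (quasi-likelihood, robust) under R 4.3.3. The 14 stromal libraries (17783 genes), the 14 luminal libraries (16538) and all 28 (19569) were fitted separately, with each combination of lineage, subset and treatment as a group. The Benjamini-Hochberg adjustment ran over every gene of a fit, with a threshold of 0.01. The SE was derived from the F statistic and the log2 fold change. CPM were TMM-scaled over the 28 libraries. The stromal fit alone was run on simulated counts of independent libraries, which cannot show effects of pairing within mice or of mixed cell kinds.

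Alternatives were DESeq2 1.42.0 (its test and its size factors), limma-voom 3.58.1, library size only, no low-count filter, a threshold of 0.05, only the groups compared, the mouse or the replicate number as a block, and each mouse left out. The 4 populations of a mouse are paired by the sample titles. Mean correlations of deviations from group means within a mouse were 0.0507 between the stromal and 0.154 between the luminal subsets, and -0.0198 and -0.0594 between different mice. Untreated and E+P mice that share a number are different mice (-0.0150).

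The members, lists and tests were chosen with earlier results of these data known. List genes named are at most 4 per list and comparison, those with the largest absolute log2 fold change that passed the threshold, did not overlap between groups and had at least 10 CPM in the higher group. Some genes that this rule names are not reported here.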

Additional observations from a re-analysis of the deposited data

Results flagged for a closer look

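In 27 groups of 4 libraries, a member's highest or lowest value was compared with the nearest other value, as a share of the group's range, by Dixon's 95% criterion. Chance alone passes about 1 in 20 groups. *Alx4* in untreated GFP+ stroma passed with 0.962, from the third mouse at 54.6 CPM beside 36.7 CPM for the next. That library also had the highest fibroblast marker sum of its group, 60081 CPM, whose part was not tested. *Osr1* in untreated GFP+ luminal cells passed with 0.904, from the second mouse at 11.8 CPM beside 3.93 CPM. Its basal marker sum was 87.2 CPM (others 42.3 to 56.5 CPM) and its luminal marker sum 4935 CPM (others 5499 to 6542 CPM), and their part was not tested. In untreated tdTomato+ luminal cells the third mouse stood apart for *Prrx1* (0.972, 4.35 CPM beside 0.122 CPM) and for *Twist2* (0.913, 1.40 CPM beside 0.122 CPM). This library also had the highest sums of its group for fibroblast (76.3 CPM), skeletal muscle (44.9 CPM) and satellite cell markers (2.95 CPM), and their part was not tested. The interaction of lineage and subset passed for *Msx1*, with 4.47 on the log2 scale, but its luminal side held only 14 counts in GFP+ and 72 in tdTomato+ cells, too few for the luminal fit, so no difference between the lineages is read from it.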

How the results depend on the processing

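Of 1034 recomputed values for 73 results, 962 kept their direction and side of the threshold. For E+P in GFP+ stroma, 0 members were called, but 1 by limma-voom and 2 without the low-count filter or with only the GFP+ groups. Over all genes, 41 calls of 17783 became 97 of 17783, 459 of 35652 and 187 of 15199 in these settings. In tdTomato+ stroma 0 became 1 by DESeq2, 2 without the filter and 0 to 1 with a mouse left out. Over all genes, 22 calls there became 384 of 17783, 840 of 35652, and 1 to 85 with a mouse left out. The interaction of subset and E+P went from 0 to 3 members without the filter, and from 8 to 506 over all genes. E+P in GFP+ luminal cells went from 0 to 1 member without it (985 to 914 over all genes). E+P in tdTomato+ luminal cells went from 0 to 1 member by DESeq2 (2327 to 3558 over all genes). The interaction of lineage and subset, with 1 called, gave 4 by DESeq2, 4 by limma-voom, 2 without the filter, 4 at a threshold of 0.05 and 1 to 2 with a mouse left out. With the mouse as a replicate block, 5 members were called between the stromal subsets, as without it, and the paired fit changed no other member's call than that of untreated *Msx1*. Over all genes it raised the calls of the interaction of subset and E+P from 8 to 13. Blocking on numbers that mark different mice raised those of E+P in tdTomato+ stroma from 22 to 45.

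Small values changed sign. *Prrx1* between subsets with E+P was -0.029 by DESeq2 or with its size factors, -0.028 with library size only, and -0.12 to 0.15 with a mouse left out. *Twist2* there was 0.021 without the filter and -0.33 to 0.26. *Alx4* with E+P in tdTomato+ stroma was -0.25 by limma-voom and -0.47 to 0.64 with a mouse left out. The other ranges with a mouse left out were -0.054 to 0.066 for *Osr1* and -0.19 to 0.34 for *Twist2* with E+P in GFP+ stroma, -0.031 to 0.15 for *Prrx1* and -0.12 to 0.92 for *Prrx2* with E+P in tdTomato+ stroma, -0.86 to 0.013 for *Osr1* with E+P in GFP+ luminal cells, and -0.35 to 1.53 for *Msx2* by lineage and subset. The cause was not tested.

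Scaling by library size only moved the median of all genes from 0.02 to -0.27 between stroma and luminal cells, where calls went from 6455 higher and 5972 lower to 5112 and 8053. Between luminal subsets it moved from 0.00 to 0.14 (2601 and 3144 to 3539 and 2284), for E+P in tdTomato+ luminal cells from -0.05 to -0.27 (1262 and 1065 to 731 and 2165), and for lineage and subset from -0.08 to -0.28 (3184 and 3318 to 2480 and 4117). Calls of E+P in GFP+ luminal cells went from 525 and 460 to 357 and 636. Members at a few counts, *Tcf21* and most members in luminal cells, are limited by depth.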
